A study of Danio rerio with 8 samples.

Results

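The genes described here are 35 members of the heat shock protein and chaperonin families of the zebrafish (Danio rerio), followed in liver RNA of fish labelled 18, 26 or 34 °C. They are the Hsp90, Hsp70 and Hsp110 chaperones, the small heat shock proteins, the DnaJ cochaperones, the heat shock factor hsf1 with a few cochaperones of Hsp70 and Hsp90, and the subunits of the cytosolic chaperonin CCT. The list also holds hspd1 and hspe1 of the mitochondrial chaperonin and serpinh1b, a collagen chaperone of the endoplasmic reticulum, which are not cytosolic. Members were selected by gene symbol, from a list drawn up with earlier results of these data known: each probe was given the symbol of the platform annotation, updated by Entrez ID, and kept if that symbol was on the list. In all, 32 of the 35 members had at least 1 probe, among 15548 named genes and 35434 features (named genes and single unnamed probes). No probe carried the names hsp70.1, hsp70.2 or cct2, so these 3 members have no value here.

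Chaperones bind unfolded stretches of other proteins and let them fold or refold. Hsp70 takes up clients that DnaJ proteins deliver, hands some of them on to Hsp90, and shares others with CCT, a double ring that folds actin and tubulin. Cells make some of these proteins at all times and others mainly on heat or other stress, when the transcription factor Hsf1 switches their genes on.

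According to its design text, the series served to select probes that respond to temperature. Liver RNA was compared on 8 Agilent 2-colour arrays, each holding a Cy5-labelled and a Cy3-labelled sample, and neighbouring arrays shared a sample so that all were joined in a loop. The 7 RNA samples were 2 replicates each at 18, 26 and 34 °C on day 28 and 1 sample at 26 °C on day 4. The labels give no strain, sex, age or number of fish and do not say how the day was counted. They call the replicates biological, and the p-values below measure only the spread between these samples.

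A level below is the log2 level of a gene in 1 RNA sample relative to the mean of the 7 samples, fitted from the log2 ratios of the arrays. A change is a difference of mean levels between 2 temperatures, given with limma's moderated standard error (2 samples against 2). A change was called when its p, adjusted over all 35434 features (Benjamini-Hochberg), was below 0.05. An exact permutation test of 2 samples against 2 cannot give a two-sided p below 0.333, so no such test was run on single genes. The deposited ratios were read as Cy5 over Cy3, which limma uses and which the order of the array titles fits, but no source used here states it. On that reading a positive change means more of the transcript at the temperature named first. On the opposite reading every sign below turns together, while sizes, p-values and the contrast between members with opposite signs stay as they are. Ratios carry no absolute level, so the labelled tissue could not be checked by the presence of its markers, and the levels of different genes cannot be ranked.

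Over the 8 arrays the median ratio ran from -0.000725 to 0.00385 and the SD from 0.315 to 0.537. The spread near 0 differed more between arrays. The median absolute deviation ran from 0.0186 to 0.12, and 43.2% to 82.8% of probes lay within 0.1 of 0. Replicate 1 and replicate 2 had a correlation over features of 0.404 (18 °C), -0.0269 (26 °C) and 0.462 (34 °C), and features are not independent replicates. The SD of the difference between the replicates was 0.273 (18 °C), 0.226 (26 °C) and 0.278 (34 °C). The correlation near 0 at 26 °C thus came without a larger gap between its replicates. Marker lists of 3 cell types stood apart between the temperatures. At 34 °C against 18 °C, 23 of 23 hepatocyte markers were positive (median change 1.56, 1 called) and 24 of 24 oocyte markers were negative (median -2.34, 6 called). Their median levels ran from 0.28 to 1.07 in the 34 °C samples and from -0.96 to -0.47 in the 18 °C samples for hepatocytes. For oocytes they ran from -1.02 to -0.83 at 34 °C and from 0.75 to 1.55 at 18 °C. Exocrine pancreas markers were positive for 19 of 20 genes (median 1.76, 0 called by limma, 3 at an unadjusted p below 0.05), with median levels of 0.30 to 0.91 at 34 °C against -1.48 to -0.32 at 18 °C. The median change of the erythrocyte, leukocyte, endothelial, stellate and cholangiocyte lists lay between -0.013 and 0.13, and 0 of their genes were called (0 to 4 a list at an unadjusted p below 0.05). In RNA of whole tissue, fewer cells of a type and less RNA per cell cannot be told apart. The origin of the oocyte and exocrine pancreas transcripts in samples labelled liver was not tested. The part of these markers in the results below was not tested.

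Set against 18 °C, the 34 °C livers had 1 called member, hspb8, a small heat shock protein, with a positive change of 0.74 ± 0.053 (adjusted p = 0.0340). Over all features, 0.982% were called. The 7 members with changes of at least 2-fold did not pass the test. Of these, stip1, hsp70.3, hsp90aa1.2, dnajb1b and hspa4a were negative, and hspa4b and hspa8 were positive. Of 32 members, 20 had negative and 12 had positive changes, with a median of -0.11, against 0.00086 over all features and -0.011 over named genes. The members' median change was 0.38 in size, against 0.054 for all features and 0.087 for named genes. The 7 members of at least 2-fold compare with 4.48% of all features and 7.65% of named genes. An unadjusted p below 0.05 was given to 15 members, 5 positive and 10 negative, against 13.9% of all features and 23.4% of named genes. Of the 32 members, 31 had at least the median SD over the arrays, while the backgrounds here and below also hold the less variable features. The members were not compared with features of like spread.

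**Figure D1:**
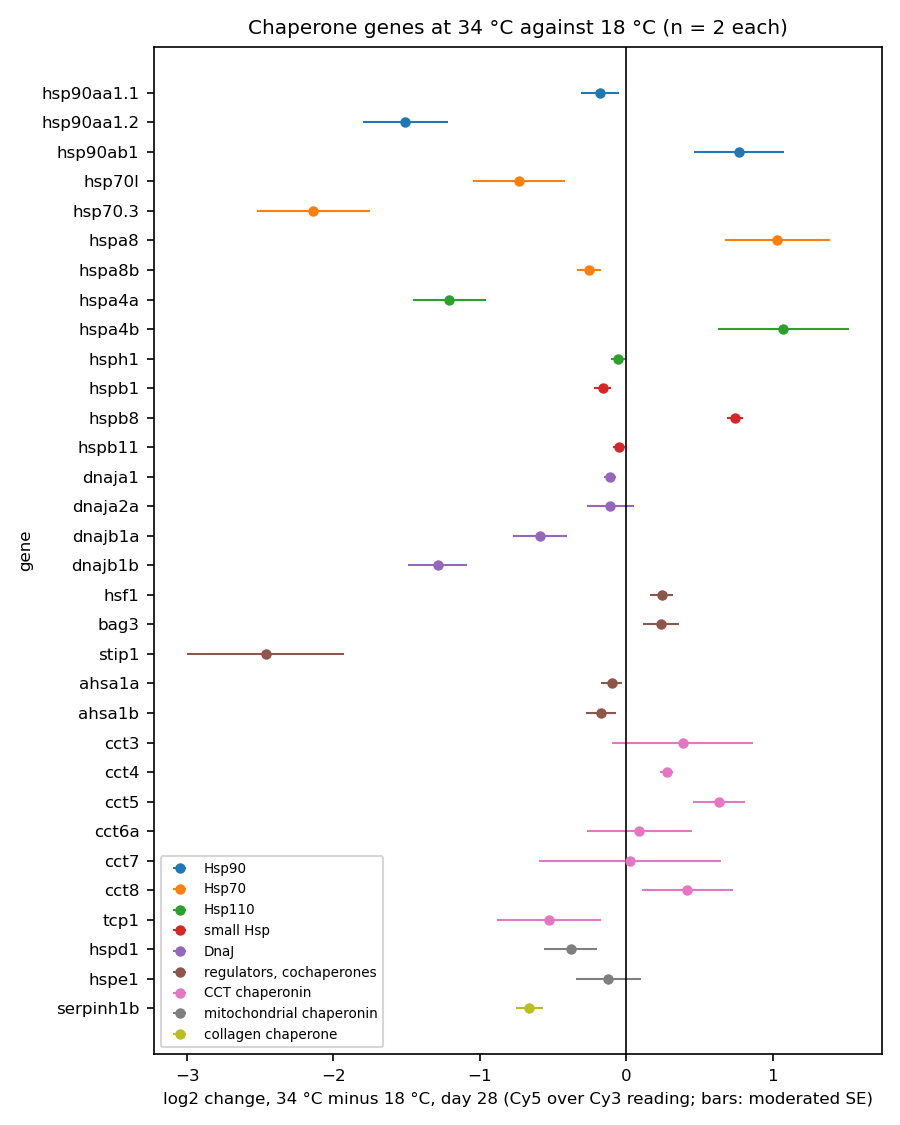
Log2 change at 34 °C minus 18 °C on day 28 (horizontal axis; points with moderated standard errors as bars, 2 samples each) for 32 chaperone genes, coloured by subfamily. The points run from -2.46 for stip1 to 1.07 for hspa4b, and hspb8 at 0.74 is the called one.

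Among the Hsp90 genes, hsp90aa1.2, a stress-inducible form, had levels of 0.67 and 0.34 at 18 °C, 0.41 and -0.32 at 26 °C and -1.18 and -0.83 at 34 °C on day 28. The day 4 sample at 26 °C had 0.90. Both 34 °C samples were thus below the other 5. The change at 34 °C against 18 °C was -1.51 ± 0.29 (2.85-fold in size, adjusted p = 0.103), and against 26 °C it was -1.05 (adjusted p = 0.383). The value against 26 °C was -0.68 without 26 °C replicate 1 and -1.69 without the array of 34 °C replicate 2 with 26 °C replicate 2. Its 2 probes gave -2.43 and -0.59. The neighbouring gene hsp90aa1.1, with no protein-coding gene between them in RefSeq, had a change of -0.18 ± 0.13 with overlapping groups. Probes of such similar genes can bind each other's transcripts, which was not tested. The constitutive hsp90ab1 had the opposite sign, with levels of 0.77 and 0.40 at 34 °C against -0.48 and 0.11 at 18 °C. Its change was 0.77 ± 0.31 (adjusted p = 0.396), and its 4 probes gave 0.23, 0.25, 1.29 and 1.31. The loop residual SD, a measure of how far the arrays of a gene disagree, was 0.43 for hsp90ab1. Its change was 0.48 without 18 °C replicate 1, 0.081 without the array of 34 °C replicate 1 with 18 °C replicate 1 or that of 34 °C replicate 2 with 26 °C replicate 2, and 1.35 without either array of the day 4 sample.

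Of the Hsp70 genes, hsp70.3, a stress-inducible form measured by 1 probe, had levels of 1.07 and 0.40 at 18 °C, 0.62 and -0.34 at 26 °C and -1.46 and -1.34 at 34 °C, with 1.05 on day 4. Again both 34 °C samples lay below all others, and the 34 °C replicates differed by 0.12. The change was -2.14 ± 0.39 at 34 °C against 18 °C (4.40-fold in size, adjusted p = 0.0950) and -1.54 ± 0.39 at 34 °C against 26 °C (adjusted p = 0.348; -0.68 without the array of 34 °C replicate 2 with 26 °C replicate 2). Since hsp70.1 and hsp70.2 are its neighbours in RefSeq and carry no probe of their own here, the probe may also read their transcripts, which was not tested. The inducible hsp70l had -0.75 and -0.37 at 34 °C against 0.15 and 0.19 at 18 °C, a change of -0.73 ± 0.31 (adjusted p = 0.436). The constitutive hspa8, known as Hsc70, had 0.78 and 0.077 at 34 °C against -1.003 and -0.20 at 18 °C. At 26 °C on day 28 it had 0.36 and 0.17, overlapping the 34 °C samples. The change at 34 °C against 26 °C was 0.16 ± 0.36 (adjusted p = 0.965). At 34 °C against 18 °C its groups did not overlap, its 3 probes were all positive (0.69, 0.75 and 1.66), and its change was 1.03 ± 0.36 (adjusted p = 0.309). It was 0.63 without 18 °C replicate 1, 0.68 without 34 °C replicate 1, and 0.60 without the array that joins these samples or that of 34 °C replicate 2 with 26 °C replicate 2. For hspa8b the change was -0.26 ± 0.081 (adjusted p = 0.262).

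**Figure D2:**
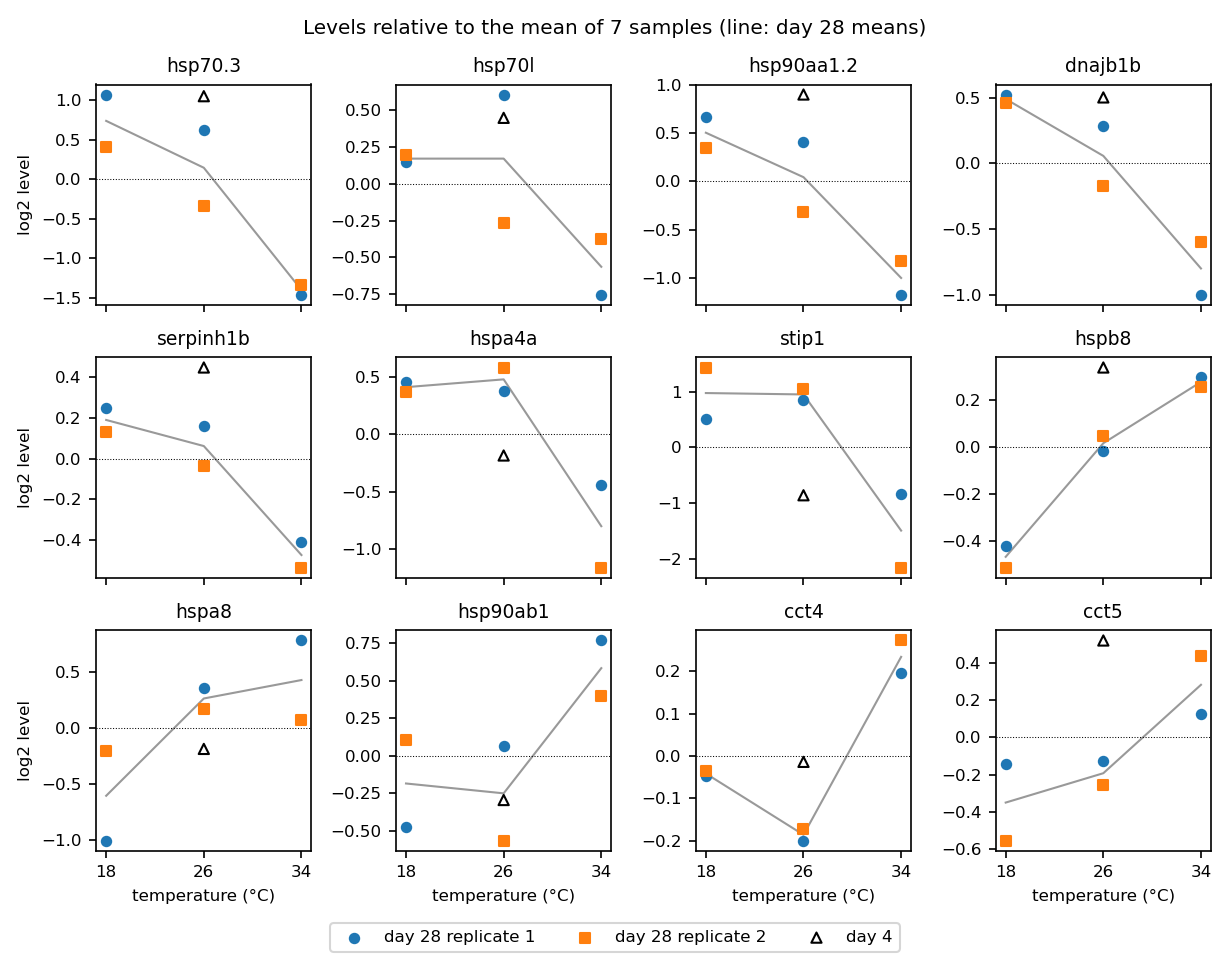
Log2 level relative to the mean of the 7 samples (vertical axes, scaled per gene) by temperature in °C for 12 chaperone genes; circles and squares are day 28 replicates 1 and 2, triangles the day 4 sample, and lines join day 28 means. For hsp70.3 and hsp90aa1.2 both 34 °C points lie below all others, and for hspb8 both 34 °C points lie above both 18 °C points.

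The Hsp110 proteins release nucleotide from Hsp70. Of these, hspa4a had levels of 0.45 and 0.37 at 18 °C, 0.38 and 0.58 at 26 °C and -0.44 and -1.16 at 34 °C, with -0.18 on day 4. The 18 °C and 26 °C samples of day 28 lay close together, and both 34 °C samples lay below them. The change was -1.21 ± 0.25 against 18 °C (adjusted p = 0.120) and -1.28 ± 0.25 against 26 °C (adjusted p = 0.281). Its duplicate hspa4b was positive at 1.07 ± 0.45 (adjusted p = 0.419), but its arrays fitted together poorly: the residual SD of its loop was 0.77, against a median of 0.070 over all features. Without single arrays its change ran from 0.028 (either array of the day 4 sample) to 2.31 (34 °C replicate 1 with 18 °C replicate 1, or 34 °C replicate 2 with 26 °C replicate 2), with 0.49 without 26 °C replicate 2 with 18 °C replicate 2, and it was 0.61 without the 18 °C replicate 2 sample. For hsph1 the 7 levels spanned 0.15 and the change was -0.056 ± 0.046. The opposite signs of hspa4a and hspa4b were not tested against each other.

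Among the small heat shock proteins, which hold unfolded proteins in a soluble state, hspb8 had levels of -0.42 and -0.51 at 18 °C, -0.013 and 0.049 at 26 °C and 0.30 and 0.26 at 34 °C, with 0.34 on day 4. The day 4 sample, at 26 °C, thus lay above both 34 °C samples. The 3 temperatures did not overlap on day 28, and the replicates of each differed by at most 0.092. Besides the called change at 34 °C against 18 °C, it had -0.48 ± 0.053 at 18 °C against 26 °C (adjusted p = 0.390) and 0.26 ± 0.053 at 34 °C against 26 °C (adjusted p = 0.289). The call rests mainly on 1 of its 5 probes. That probe gave 2.70 ± 0.27 (adjusted p = 0.0514 when probes were tested singly), and the other 4 gave 0.64, 0.24, 0.14 and -0.010, with a mean of 0.25. With the median over probes the change of hspb8 was 0.20 (adjusted p = 0.233). Its loop residual SD was 0.33, larger than its standard error. Leaving out 1 array at a time gave changes from 0.30 to 1.27, none called. Without each of the 6 day 28 samples in turn the change was 0.70 to 0.79. Such a fit leaves 1 sample in a group, so only its change is given. The sample was left out after the levels were fitted from all arrays. Leaving out a 26 °C sample thus could not move this change. Leaving out the others moved it only through the replicate gaps, so the range is no further check.

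The lowest of these hspb8 values, 0.30, came without the array that joins 18 °C replicate 1 to day 4 and without the one that joins day 4 to 34 °C replicate 2. The highest came without the array of 34 °C replicate 1 with 18 °C replicate 1 and without that of 34 °C replicate 2 with 26 °C replicate 2. The value moved by more than 1.5 times also without the array of 26 °C replicate 2 with 18 °C replicate 2 (0.49). Against 26 °C the changes of hspb8 ran from 0.16 to 1.14 at 34 °C and from -1.11 to -0.13 at 18 °C when single arrays were left out, with 1.14 without 34 °C replicate 2 with 26 °C replicate 2 and -1.11 without 34 °C replicate 1 with 18 °C replicate 1. Of the other small heat shock proteins, hspb1 (Hsp27) had -0.13 and -0.20 at 34 °C, against 0.27 and 0.23 at 26 °C on day 28, -0.17 at 26 °C on day 4 and -0.060 and 0.049 at 18 °C. The day 4 sample thus lay between the 34 °C samples. The change at 34 °C against 26 °C on day 28 was -0.42 ± 0.058 (adjusted p = 0.225; -0.22 without the array of 34 °C replicate 2 with 26 °C replicate 2), and it was -0.16 ± 0.058 against 18 °C. The 7 levels of hspb11 spanned 0.15.

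**Figure D3:**
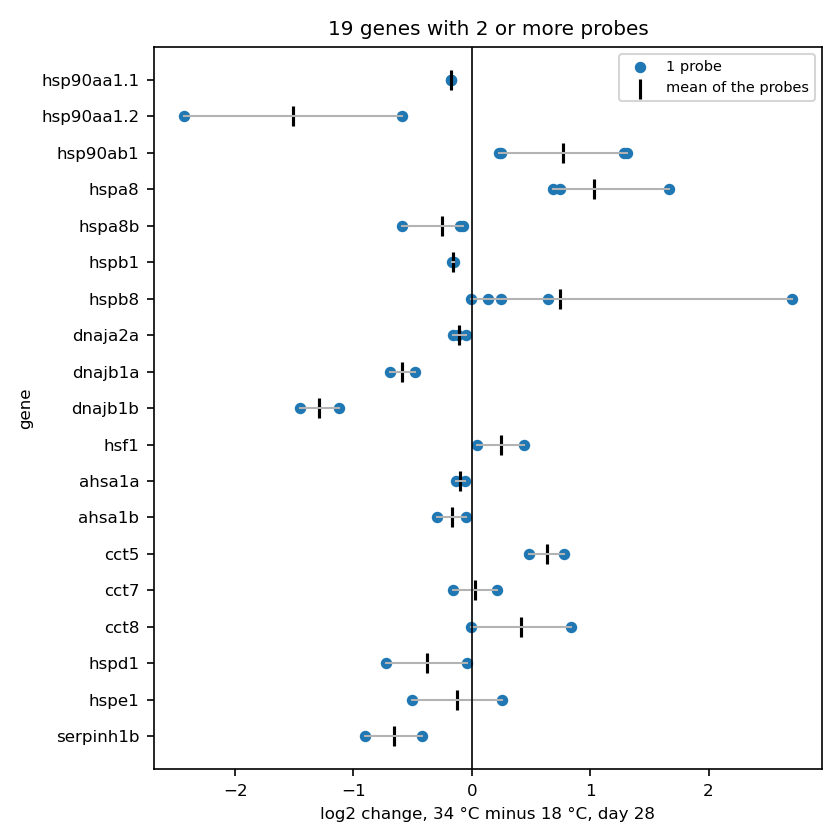
Log2 change at 34 °C minus 18 °C for each probe (points) and their mean (vertical ticks) in the 19 chaperone genes with 2 or more probes. The hspb8 probes run from -0.010 to 2.70, and both dnajb1b probes lie below -1.

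The DnaJ proteins stimulate the ATPase of Hsp70. All 4 measured here were negative at 34 °C against 18 °C, with a median of -0.35. Of them 0 were called by limma, and 3 had an unadjusted p below 0.05, against 23.4% of named genes. The largest was dnajb1b, a heat-inducible Hsp40, with levels of 0.52 and 0.46 at 18 °C, 0.28 and -0.17 at 26 °C and -0.998 and -0.60 at 34 °C, and 0.50 on day 4. All 5 other samples lay above both 34 °C samples. Its change was -1.29 ± 0.20 (2.44-fold in size, adjusted p = 0.0752), with -1.46 and -1.12 for its 2 probes. Its duplicate dnajb1a had -0.59 ± 0.18 (adjusted p = 0.253) and also kept 1 sign over its probes. The changes of dnaja1 and dnaja2a were both -0.11.

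Among the regulators, stip1, the adaptor Hop that holds Hsp70 and Hsp90 together, had the largest change of all members. Its single probe gave levels of 0.52 and 1.43 at 18 °C, 0.84 and 1.05 at 26 °C and -0.83 and -2.16 at 34 °C, with -0.86 on day 4. The 34 °C replicates differed by 1.33, yet both lay below every 18 °C and 26 °C sample of day 28, and the day 4 sample lay between them. The change was -2.46 ± 0.54 against 18 °C (5.52-fold in size, adjusted p = 0.132) and -2.44 ± 0.54 against 26 °C (adjusted p = 0.307). The gene of the heat shock factor itself, hsf1, was positive at 0.24 ± 0.079 (adjusted p = 0.272). Likewise bag3, which works with hspb8 in clearing misfolded proteins, had 0.24 ± 0.12 (adjusted p = 0.567). The Hsp90 activators ahsa1a and ahsa1b had -0.098 and -0.17.

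The CCT subunits were the one subfamily with mostly positive changes: 6 of 7, with a median of 0.27. Of them 0 were called by limma, and 2 had an unadjusted p below 0.05, against 23.4% of named genes. The closest replicates were those of cct4, whose 1 probe gave -0.048 and -0.034 at 18 °C, -0.20 and -0.17 at 26 °C and 0.19 and 0.27 at 34 °C, with -0.014 on day 4. Both 34 °C samples were above the other 5. The change was 0.27 ± 0.045 against 18 °C (adjusted p = 0.0789) and 0.42 ± 0.045 against 26 °C (adjusted p = 0.184), the smallest adjusted p of any member in that comparison. With arrays scaled to equal spread the change of cct4 against 18 °C was 0.0996 (adjusted p = 0.900). The largest CCT change was that of cct5, with -0.15 and -0.56 at 18 °C, -0.13 and -0.26 at 26 °C, 0.13 and 0.44 at 34 °C and 0.52 on day 4. It was 0.63 ± 0.18 (adjusted p = 0.213), and the 2 probes gave 0.49 and 0.78. For cct5 the value was 0.24 without the array of 34 °C replicate 1 with 18 °C replicate 1 or that of 34 °C replicate 2 with 26 °C replicate 2, and 0.97 without either array of day 4. The 34 °C replicates of cct3, cct7 and cct8 differed by 1.23, 1.67 and 0.75, more than their changes of 0.38, 0.025 and 0.42. For cct6a the change was 0.089, and for tcp1, the alpha subunit, -0.53 ± 0.36. On the opposite reading of the ratios 6 of the 7 subunits would be lower at 34 °C, and hsp70.3, hsp90aa1.2, dnajb1b and stip1 higher.

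The mitochondrial chaperonin pair, hspd1 (Hsp60) and hspe1 (Hsp10), lie next to each other in RefSeq. Levels of hspd1 were 0.40 and -0.12 at 18 °C, 0.12 and -0.0048 at 26 °C and -0.20 and -0.29 at 34 °C, with 0.095 on day 4. Its groups did not overlap, but the 18 °C replicates differed by 0.52, more than its change of -0.38 ± 0.18 (adjusted p = 0.508), and its 2 probes gave -0.72 and -0.039. The change of hspd1 was -0.12 without 18 °C replicate 1 and -0.64 without 18 °C replicate 2. The probes of hspe1 disagreed in sign, at -0.50 and 0.26. Its change was -0.12 ± 0.22 against 18 °C, where the groups overlapped, and -0.64 ± 0.22 against 26 °C (adjusted p = 0.502). Without the array of 34 °C replicate 2 with 26 °C replicate 2 that value of hspe1 turned to 0.032, and it was -0.42 without that of 26 °C replicate 1 with 34 °C replicate 1. Its highest level, 0.99, was in the day 4 sample.

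The collagen chaperone serpinh1b, known as Hsp47 and heat-inducible, had levels of 0.25 and 0.13 at 18 °C, 0.16 and -0.038 at 26 °C and -0.41 and -0.53 at 34 °C, with 0.45 on day 4. Both 34 °C samples were the lowest. The change was -0.66 ± 0.092 (1.58-fold in size, adjusted p = 0.0646) against 18 °C and -0.53 ± 0.092 (adjusted p = 0.251) against 26 °C, and both probes were negative, at -0.91 and -0.42. The serpinh1b call depended on the fit. It passed the threshold without the dye term (adjusted p = 0.0426), with the replicate number as a block (0.0435), when limma was run on the arrays directly (0.0182) and among the more variable features by SD alone (0.0411). It did not pass with the median over probes (0.0685), scaled arrays (0.343) or named genes only (0.0511). Nor did it pass with either probe tested singly (0.0827 and 0.151) or without any 1 array. The serpinh1b change was -0.30 without either array of day 4. It was -1.09 without the array of 34 °C replicate 1 with 18 °C replicate 1 or that of 34 °C replicate 2 with 26 °C replicate 2, and without the array of 34 °C replicate 2 with 26 °C replicate 2 its change against 26 °C was -1.25. Its loop residual SD was 0.27, larger than its standard error.

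**Figure D4:**
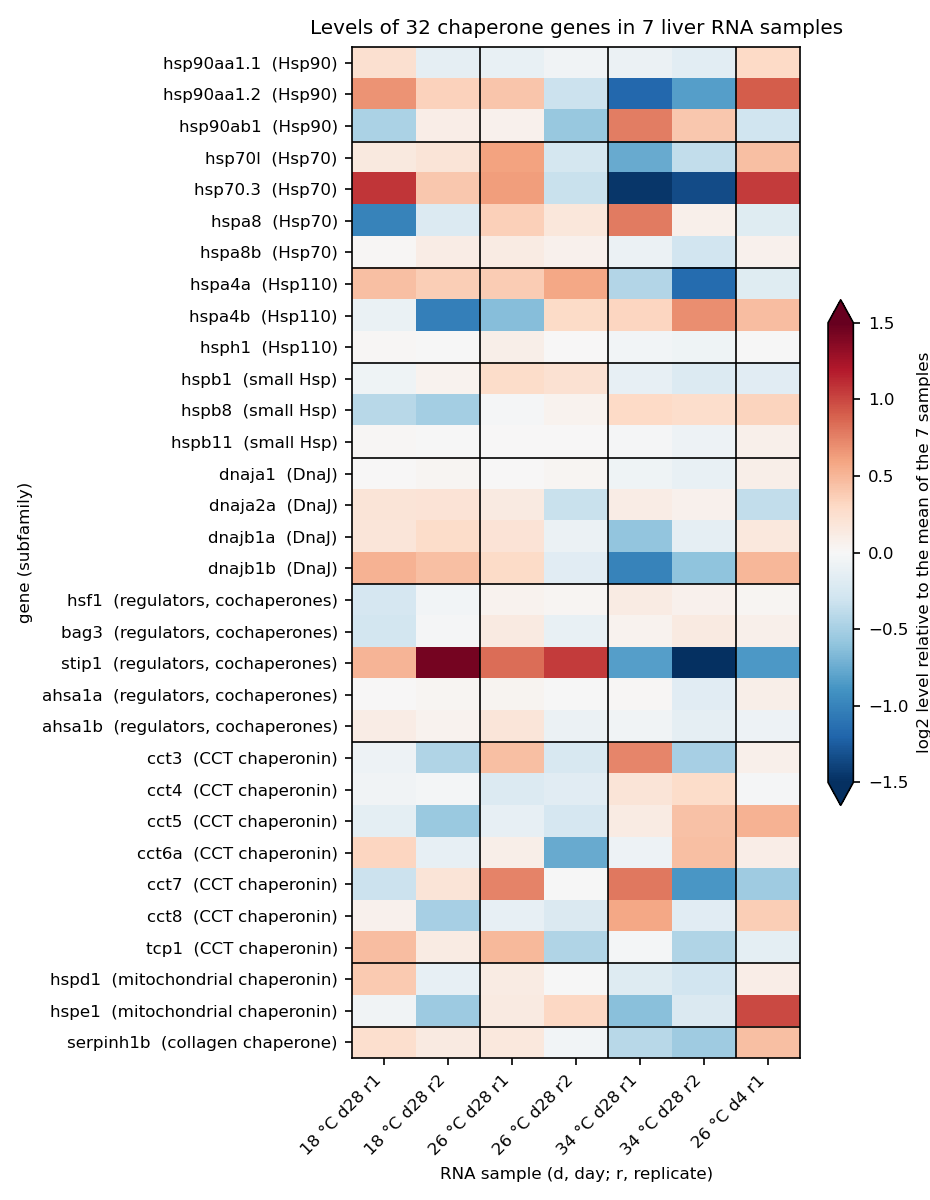
Log2 levels of 32 chaperone genes (rows, by subfamily) in the 7 liver RNA samples (columns), coloured from -1.5 (blue) to 1.5 (red) relative to the mean of the samples, with values beyond these ends at the end colours. Among others, both 34 °C columns are blue for hsp90aa1.2, hsp70l, hsp70.3, hspa4a, dnajb1b, stip1 and serpinh1b and red for hsp90ab1, hspa4b, hspb8 and cct5.

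The 34 °C and 18 °C samples did not overlap in 25 of 32 members, of which 17 were lower and 8 higher at 34 °C, against 36.9% of all features. In 17 members the change was larger than every gap between replicates, against 21.7% of all features, and in 15 it was not. Against 26 °C on day 28, the 34 °C samples did not overlap in 21 members (15 lower, 6 higher), against 38.8% of all features. No member passed the test there, and neither did any other feature (0%). Run on the arrays directly, which treats them as independent, limma called 8 members, against 1372 of 35434 features. In the fit on the sample levels, an unadjusted p below 0.05 was found for 14 members, 4 positive and 10 negative, against 8.79% of all features. The 4 members at least 2-fold in size were hsp90aa1.2, hsp70.3, hspa4a and stip1, all negative, against 2.07% of all features. This comparison shares its 34 °C samples with the one above, so the 2 sets of values are not independent.

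Between 18 °C and 26 °C the members differed less. In that comparison 0 members were called, against 0.00282% of all features, and 3 had an unadjusted p below 0.05, against 4.43% (hspb1, hspb8 and cct4), while limma on the arrays directly also called 0 members. The groups did not overlap in 8 members, 5 lower and 3 higher at 18 °C, against 25.2%. No member reached 2-fold, against 1.11% of all features, and the median change was 0.16 in size, against 0.38 at 34 °C against 18 °C and 0.39 at 34 °C against 26 °C. Over all features these medians were 0.039, 0.054 and 0.051, so a smaller size here was not particular to the members. The values furthest from 0 were -0.87 ± 0.36 for hspa8 and 0.59 ± 0.39 for hsp70.3 (both adjusted p = 0.9998).

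Day 28 and day 4 could be compared at 26 °C with 1 sample on day 4, assumed to vary like the others. There limma called 0 features (0%), with adjusted p-values of 0.645 and above. Before adjustment, 7 members had a p below 0.05, against 6.73% of all features. The day 4 sample lay above both 26 °C samples of day 28 in 15 members and below both in 7. The matching share over all features was not counted, so these counts cannot be read as particular to the members. The stip1 change was the largest there, 1.81 ± 0.66 at day 28 against day 4. Next were hsp70.3 at -0.90 and cct7 at 0.90.

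The single arrays show what these fits rest on. A 34 °C sample lay on 5 arrays, and 16 of 32 members had 1 sign on all 5, against 18.1% of all features and 25.8% of named genes. These arrays share the 2 samples at 34 °C, so they are not 5 independent readings, and their ratios still hold the dye term. Only the array of 34 °C replicate 1 with 18 °C replicate 1 compared these temperatures directly. On the others, the partner of the 34 °C sample was a 26 °C sample of day 28 or day 4. Lower at 34 °C on all 5 were 12 members, hsp90aa1.1, hsp90aa1.2, hsp70.3, hspa8b, hspa4a, hspb1, dnaja1, dnajb1b, stip1, hspd1, hspe1 and serpinh1b, and higher on all 5 were hsp90ab1, hspa4b, hspb8 and cct4. For hsp70.3 the log2 ratios of 34 °C over its partner were -2.34, -2.47 and -2.45 on the arrays with 26 °C replicate 1, 18 °C replicate 1 and day 4. They were smaller in size, -0.94 and -1.05, on both arrays with 26 °C replicate 2. On the 3 arrays without a 34 °C sample its ratios lay between -0.48 and 0.085. The ratios of hsp90aa1.2 followed the same division, with -1.63, -1.65 and -1.92 against -0.32 and -1.15. For dnajb1b the 5 ratios ran from -1.40 to -0.17, and the 3 without 34 °C from -0.51 to 0.29. For stip1 the 5 ran from -3.42 to -1.08 and the other 3 from -0.59 to 1.16. In hspb8 the 5 ran from 0.057 to 0.58 and the other 3 from -0.90 to 0.62, so the ratios furthest from 0 were on arrays without a 34 °C sample. The ratio of 0.057 was on the array with day 4, whose fitted hspb8 level was above both 34 °C levels.

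**Figure D5:**
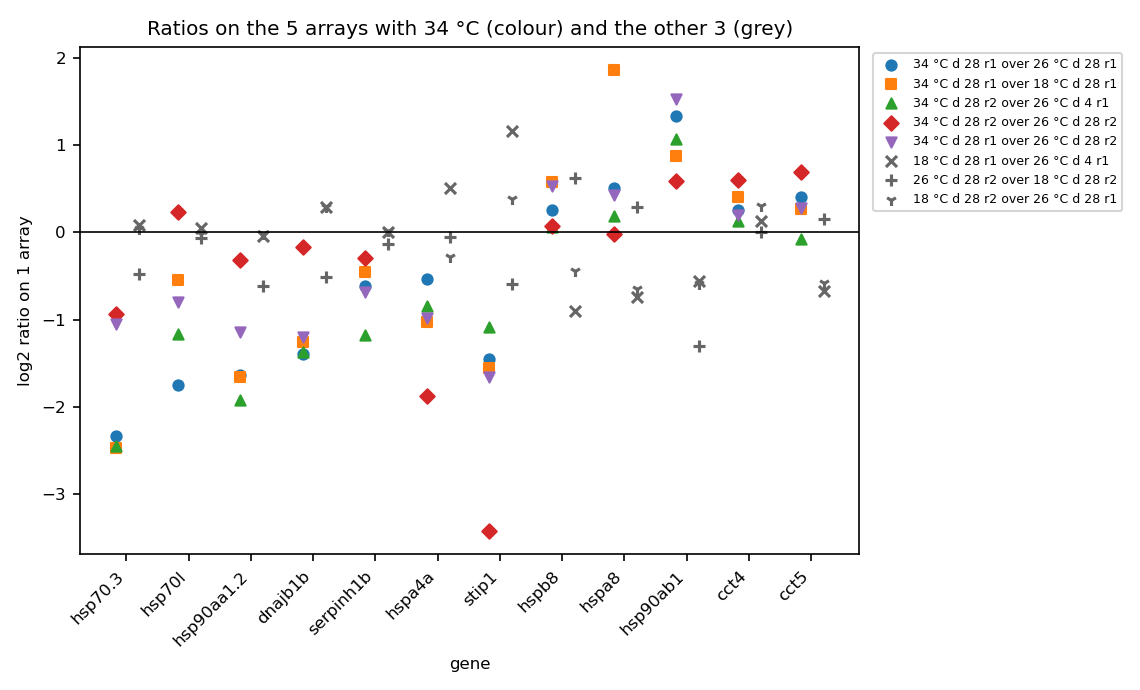
Log2 ratios on single arrays (vertical axis) for 12 chaperone genes, with the 34 °C sample on top on the 5 arrays that hold one (coloured) and the other 3 arrays in grey (d, day; r, replicate). The hsp70.3 ratios with 34 °C lie between -2.47 and -0.94, below its 3 grey ratios.

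Several probes measured 19 of the members and 1 probe the other 13. At 34 °C against 18 °C the probes of 4 of the 19 (21.1%) disagreed in sign, namely hspb8, cct7, cct8 and hspe1, against 40.5% of 6107 genes with several probes. Over 22 other settings that average the probes, the sign of the mean change at 34 °C against 18 °C held for 24 members. Not all of these settings could move that change. The replicate block, the more variable features by SD and named genes only keep the same mean change. So does leaving out a sample at neither 34 nor 18 °C. The stability of signs and sizes thus rests on the remaining settings. Sizes moved more: among the members described in full, hsp90aa1.2, hsp70.3, hspa4a, dnajb1b and stip1 kept within 1.5 times of their value, while hspb8, cct4, cct5, hspd1 and serpinh1b did not. The sign turned in at least 1 for hsp90aa1.1, hsph1, hspb11, cct3, cct6a, cct7, tcp1 and hspe1. The residual SD of the loop had a median of 0.12 over members, against 0.070 over all features and 0.080 over named genes.

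Other genes of the same pathways were read from lists. At 34 °C against 18 °C, limma gave an unadjusted p below 0.05 to 13.9% of all features and 23.4% of named genes. Of 81 further chaperones and cochaperones, 74 were measured, 30 with positive and 44 with negative changes at 34 °C against 18 °C (median -0.061). The changes ran from -1.48 to 1.52. The highest was that of hspb6, a small heat shock protein (1.52 ± 0.28, adjusted p = 0.0959), which was not called. Called were 3, all negative: sugt1, a cochaperone of Hsp90 (-1.03 ± 0.046, adjusted p = 0.0272), bag4, of the same family as bag3 (-0.84 ± 0.048, adjusted p = 0.0272), and ruvbl2, an ATPase that works with Hsp90 in assembling complexes (-1.48 ± 0.17, adjusted p = 0.0494). Prefoldin, which hands actin and tubulin to CCT, and other tubulin-folding genes had a median of -0.027 over 16 genes, 0 called (5 at an unadjusted p below 0.05). The smallest p there were those of pfdn1 (0.70, adjusted p = 0.0664) and uri1 (-0.37, adjusted p = 0.0860). The actins and tubulins themselves, clients of CCT, were negative in 13 of 18 genes (median -0.097), 0 called (6 at an unadjusted p below 0.05), with tubb4b at -1.13 (adjusted p = 0.0891) and actb1 at -2.21 (adjusted p = 0.0959). Of the collagens and their hydroxylases, the pathway of serpinh1b, 13 were measured (median -0.013), and p4ha1b, a prolyl hydroxylase, was called (-0.53 ± 0.052, adjusted p = 0.0415). The immediate early genes, read as signs of handling stress, had a median of -0.014 over 22 genes, 0 called (3 at an unadjusted p below 0.05), with mycb at -1.40 (adjusted p = 0.109) and dusp1 at -0.66 (adjusted p = 0.125).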

How the data were processed

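The authors deposited 1 normalized log2 ratio per probe and array for 43603 probes, with 0 missing. Per the labels, Trizol was used for RNA extraction and an Agilent 2-colour protocol for labelling, and the submitters' processing notes name limma. Not given in the sources used here are background correction, normalization, spot filters, log base and ratio direction. The base was taken as 2: the values run from -8.96 to 8.03, and 16-bit signals allow log10 ratios of at most 4.82. Ratios give no intensities, so a dim probe cannot be told from an unchanged one. The number of arrays limits the precision.

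Symbols came from the platform annotation, updated from a RefSeq table (GRCz12tu) by Entrez ID for 23534 probes and by accession for 42; 141 kept the platform's symbol and 19886 had none here. No coordinates are given because no build is named for the array. Probes of 1 gene were averaged. A least squares fit of the 8 ratios on 7 samples and a dye term (1 residual degree of freedom) gave the level of a feature in each sample, and limma 3.58.1 in R 4.3.3 (lmFit, eBayes) compared 4 groups on the sample levels (3 residual, 1.63 prior degrees of freedom). Errors shared through the arrays are ignored by this second step. Members and lists were chosen with earlier results of these data known. Described in full were called members and, in each subfamily, the members with the smallest p and with the largest change at 34 °C against 18 °C. From the other lists up to 4 called genes are named, or the 2 with the smallest p. The gene hspb6 was named outside this rule, after the values were seen, as the highest change among the further chaperones. Alternatives were single probes, the median over probes, no dye term, scaled arrays, limma on the arrays directly, a replicate block, the more variable features by SD, named genes only, and leaving out each sample or array. The steps were run on simulated arrays with independent samples and array errors smaller than the spread between samples. That run does not test the second step under larger array errors.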

Additional observations from a re-analysis of the deposited data

How the results depend on the processing

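At 34 °C against 18 °C, 348 features and 1 member were called. The counts were 226 and 0 with single probes, 0 and 0 with arrays scaled to equal spread, 2994 and 9 with limma on the arrays directly, which treats them as independent, and 1085 and 5 among the more variable features by SD. Features and members called were 296 and 0 with the median over probes and 314 and 2 without the dye term. At 34 °C against 26 °C, limma on the arrays directly called 1372 features and 8 members, against 0 and 0. At 18 °C against 26 °C it called 29 features, against 1, and single probes, scaled arrays, the replicate block and the more variable features gave 0, while members called stayed at 0 in all settings run. Leaving out 1 array at a time gave 0 to 246 features and at most 1 member at 34 °C against 18 °C. It gave 0 to 2 features at 34 °C against 26 °C and 0 at 18 °C against 26 °C. Leaving out the day 4 sample, alone in its group, could not change these comparisons and gave the main counts again. A fit without a day 28 sample has 1 sample left in a group, so its counts are not given. The 15 members with an unadjusted p below 0.05 at 34 °C against 18 °C became 7 without the array of 18 °C replicate 1 with day 4 or that of day 4 with 34 °C replicate 2, 8 without 34 °C replicate 1 with 18 °C replicate 1, and 9 without 34 °C replicate 2 with 26 °C replicate 2. Without these 4 arrays in the same order, the 14 at 34 °C against 26 °C became 4, 4, 5 and 7. Those 14 became 9 without 26 °C replicate 1 with 34 °C replicate 1. The shares of all features at that threshold in these fits were not counted. Over all features, the 348 called at 34 °C against 18 °C became 0 without each of the first 4 of these arrays. They also became 0 without 18 °C replicate 2 with 26 °C replicate 1. The count was 1 without 26 °C replicate 1 with 34 °C replicate 1 and 15 without 26 °C replicate 2 with 18 °C replicate 2. Without 26 °C replicate 2 with 34 °C replicate 1 it was 246. The 1 probe of hspb8 that reversed gave -0.010. The mean of hspb8 without its probe of largest change, an alternative chosen after seeing the data, was 0.25. Scaled arrays gave hspb8 0.96 (adjusted p = 0.174). The array step had 1 residual degree of freedom, so a fit without 1 array fits the remaining arrays exactly. All such shifts of a gene are multiples of the same residual and cannot single out an array. The cause of these shifts was not tested.

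Deviations of same-numbered replicates correlated at -0.151 (18 and 26 °C), -0.133 (18 and 34 °C) and 0.415 (26 and 34 °C). The fitted levels share errors through the arrays, so these values cannot settle whether the numbers pair the samples. With the replicate number as a block, 237 features and 1 member were called at 34 °C against 18 °C: hspb8 was lost (adjusted p = 0.0509) and serpinh1b was gained (adjusted p = 0.0435).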
